A study of Mus musculus with 4 samples.

Results

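The 42 genes described here encode the machinery that copies DNA in S phase: origin licensing factors, the MCM helicase, primase and polymerases, the sliding clamp and its loader, Okazaki fragment enzymes, chromatin assembly factors, enzymes of deoxynucleotide supply, and the E2F factors and E-type cyclins that govern entry into S phase. They were a named list, chosen with earlier results of these data known and found by the gene names in the array files. They had 56 of the 39429 probes and were 42 of the 22327 genes that could be named. By the file's own gene names 41 of them were found, and Ticrr was found through an updated symbol. One probe stood for each of 31 members and several probes for each of the other 11.

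Gene expression was measured with 1-colour Agilent arrays in liver and white adipose tissue (WAT) of mice. The groups were liver labelled Pnpla7-/- (knockout), wild-type liver, WAT labelled Pnpla7-/- and wild-type WAT, all from C57BL/6N animals aged 4 weeks. Each group was 1 array, and each array was hybridised with Cy3-labelled RNA, an equal pool of 5 animals, so the spread between animals was not measured and no test or p-value is given. The RNA protocol names livers for all 4 samples. The fat depot, the sex of the animals and the part of Pnpla7 that was removed are not given in the sources used here.

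Signals are given relative to the array's 75th percentile, and ratios as log2 of the labelled knockout over wild type. Between 65.5% and 72.6% of spots were well above background per array, and 0 were saturated. The median error of a log2 ratio was 0.20 in both tissues by the scanner software's model, and the pooled SD between probes of 1 gene was 0.20 for the liver pair and 0.23 for the WAT pair. Both errors cover spots and probes only, not animals. Pnpla7 itself, a lysophospholipase gene, had relative signals of 7.98 in labelled-knockout liver and 9.04 in wild-type liver, and of 0.372 in labelled-knockout WAT and 0.739 in wild-type WAT. Its single probe was thus nearly level in liver, and the directions below rest on the labels. The liver arrays carried the hepatocyte markers, of which 12 of 12 were measured and were at least 2-fold lower in wild-type WAT than in wild-type liver. The WAT arrays carried all 9 adipocyte markers, Adipoq and Plin1 among them.

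As background, DNA replication starts when the origin recognition complex, Cdc6 and Cdt1 load the ring-shaped MCM helicase onto origins. Kinases, Mcm10, the GINS complex and Ticrr (treslin) then turn the loaded rings into active helicases, and primase and the polymerases follow. Most of these genes are transcribed at the G1/S boundary under E2F factors, whose binding motif lies close to the start site of many of them. The adult liver is largely quiescent, but the hepatocytes of young animals, and those of a liver that regenerates, do divide. In bulk tissue, fewer cells in S phase and less RNA per such cell cannot be told apart.

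Because E2F control of these genes is the textbook feature of the family, the promoter windows of the members were searched for it first. The windows run from 250 bases before to 50 bases after the gene's start, from RefSeq on the GRCm38.p6 assembly, and 35 of the 42 members had one. Mcm4, Gins1, Gins2, Prim2, Pole, Rfc2 and Ccne2 had none. The E2F words searched on both strands were TTTCGCGC, TTTGGCGC, TTTCCCGC and TTTGCCGC. Of all 27025 genes with a window 2.6% held at least 1 of them, as did 4.06% of the 12213 windowed genes measured in the liver pair. Among the members, at least 1 word stood in the windows of 12 of 35 (34.3%). The holders were Mcm3, Mcm5, Mcm6, Mcm7, Cdc6, Cdt1, Orc1, Rfc3, Pola1, Pole2, Pold1 and Lig1. In 7 of them a word lay wholly upstream of the start, and those stretches are shown 5′ to 3′ on the gene's strand with the E2F word in capitals; a word on the other strand reads as its reverse complement. In Mcm5 a pair of words on opposite strands overlap, and the capitals mark both.
Mcm5: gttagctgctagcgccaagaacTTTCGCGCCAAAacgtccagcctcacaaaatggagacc
Mcm6: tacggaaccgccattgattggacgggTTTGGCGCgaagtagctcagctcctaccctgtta
Mcm7: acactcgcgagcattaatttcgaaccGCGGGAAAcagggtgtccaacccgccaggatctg
Cdc6: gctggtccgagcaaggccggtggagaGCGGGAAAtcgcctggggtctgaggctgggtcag
Orc1: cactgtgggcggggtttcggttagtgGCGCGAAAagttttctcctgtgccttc
Pola1: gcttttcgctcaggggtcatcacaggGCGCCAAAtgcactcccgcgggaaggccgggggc
Rfc3: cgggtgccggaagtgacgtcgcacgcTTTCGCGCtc

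These stretches lie at chr8:75109334-75109393 on the plus strand (Mcm5), chr1:128359719-128359778 on the minus strand (Mcm6), chr5:138172015-138172074 on the minus strand (Mcm7), chr11:98907987-98908046 on the plus strand (Cdc6), chr4:108579401-108579453 on the plus strand (Orc1), chrX:93632260-93632319 on the minus strand (Pola1) and chr5:151651209-151651244 on the minus strand (Rfc3), all on GRCm38.p6. Counted to the start from the middle of the upstream word nearest it, the distance was 145 bases in Mcm5, 43 in Mcm6, 161 in Mcm7, 134 in Cdc6, 23 in Orc1, 134 in Pola1 and 6 in Rfc3. A letter match is a description of the window and not a site of binding.

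A second motif, the CHR word TTTGAA, is known from genes of G2 and mitosis that are repressed in resting cells. It stood in the windows of 3 of 35 members (8.57%), against 20.2% of all genes with a window and 24 of 32 mitosis genes (75%). The 3 members were Mcm2, E2f8 and Fen1. They are shown with the CHR word in capitals because all 3 were among the members at least 2-fold higher in labelled-knockout liver. Of the 25 windowed members within 2-fold, 0 held the word. This split depended on the 2-fold limit. Fen1 was at 1.04 in liver, with a model error of 0.20. With the normexp background correction at an offset of 50, Mcm2 (0.96) and E2f8 (0.92) lay within 2-fold. Fen1 had 2 windows, and the stretch with the word comes from 1 of them. Over all measured genes with a window, 2.76% of the 1881 with the CHR word were at least 2-fold higher in liver. Of the 10332 without it, 1.48% were. The genes with the word had a median log2 ratio of -0.04 in liver. With 3 genes this is a description, and the E2F words were in 3 of the 7 windowed members at least 2-fold higher and in 7 of the 25 within 2-fold.
Mcm2: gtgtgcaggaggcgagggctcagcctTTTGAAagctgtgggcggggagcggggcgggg
E2f8: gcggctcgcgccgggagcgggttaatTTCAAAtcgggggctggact
Fen1: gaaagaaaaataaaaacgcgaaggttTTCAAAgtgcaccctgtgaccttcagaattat

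They lie at chr6:88898819-88898876 (Mcm2), chr7:48881597-48881642 (E2f8) and chr19:10204486-10204543 (Fen1), each on the minus strand of GRCm38.p6, with the word 67, 17 and 121 bases before the start in that order of genes. The CCAAT word was in 21 of 35 members (60.0%) and in 41.1% of all genes with a window. Members with an E2F word had a median log2 ratio of 0.83 in liver (n = 10), against 0.50 for windowed members without one (n = 22), and the 496 measured genes with such a word had a median of 0.01. In WAT the medians of the members were -0.17 (n = 11) with the word and -0.09 (n = 23) without it.

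In liver the replication genes were higher in the labelled knockout as a group. Of the 38 members measured on both liver arrays, 8 reached 2-fold upward and 0 downward, so 21.1% were at least 2-fold higher, against 1.75% of the 15568 genes measured (0.886% of those were at least 2-fold lower). Ratios above 0 were found for 33 of the 38, against 44.2% of all genes. The members' median log2 ratio was 0.62, against -0.03 over all genes. The difference exceeded the pooled SD between probes for 29 members upward and for 2 members, Tk1 and Pola2, downward.

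In WAT the same list showed no such shift. Of 40 members measured on both WAT arrays, 0 reached 2-fold in either direction. Over the 16131 measured genes 2.16% did so upward and 2.01% downward, so 0 of 40 is near the share over all genes. The median log2 ratio was -0.10, against 0.02 over all genes, and 31 of the 40 lay below 0, against 47.2% of all genes. For 27 members the ratio stayed within the pooled SD between probes, 10 were lower by more than it and 3 were higher. The plot of ratios by role shows both tissues side by side.

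**Figure D1:**
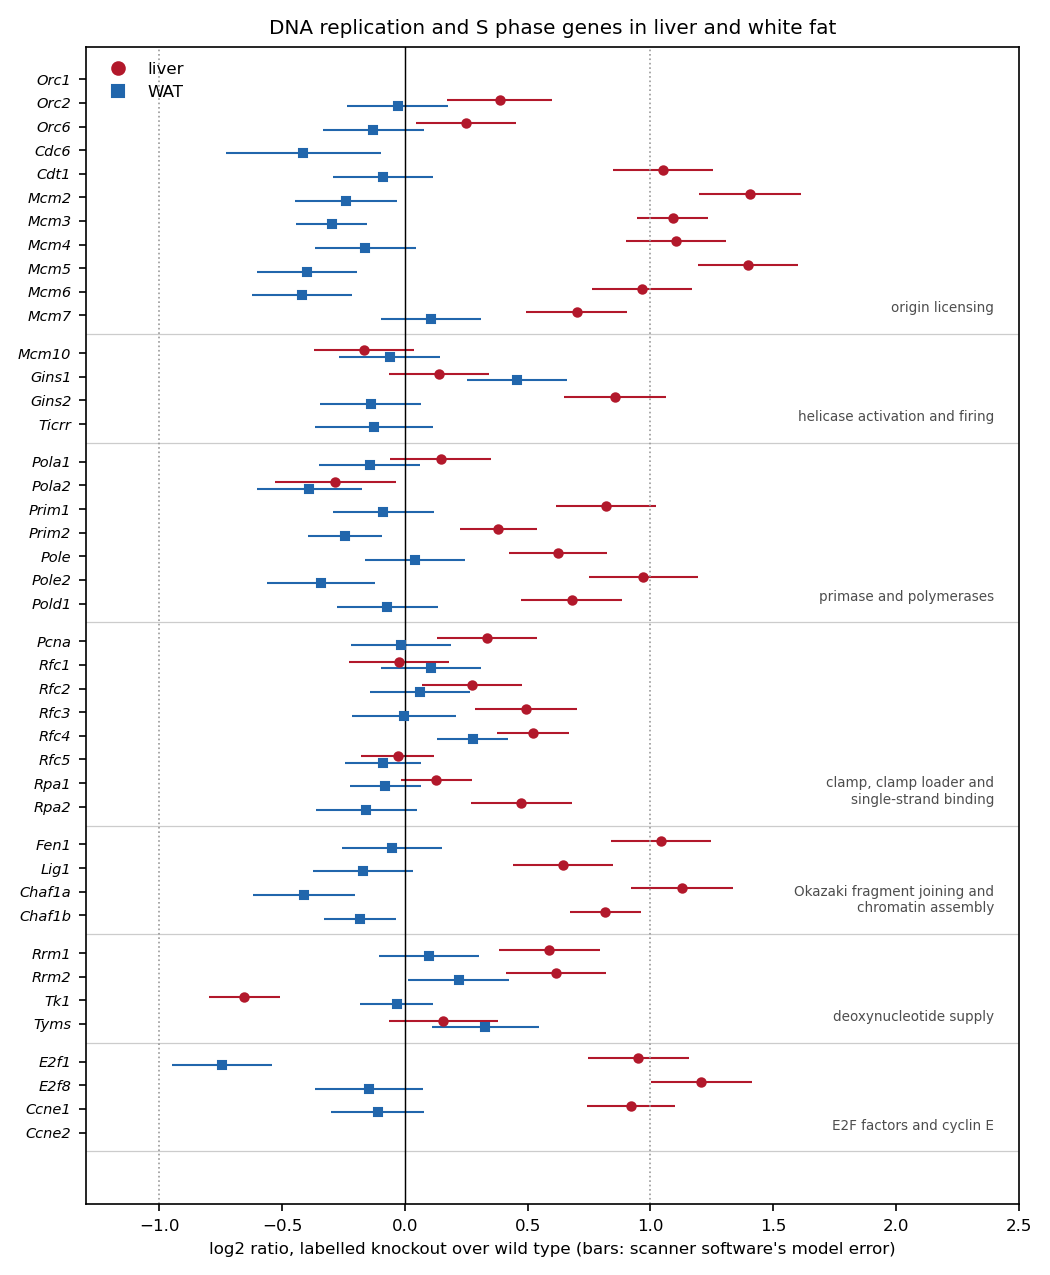
Log2 ratio of the labelled knockout over wild type (x axis) for each member (y axis, by role), in liver (red circles) and WAT (blue squares); bars are the scanner software's model error and dotted lines mark 2-fold. In liver 8 members lie at or beyond the right dotted line, in WAT 0 do, and Orc1 and Ccne2 have no measured ratio.

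The origin licensing genes had the highest median liver ratio of the 7 roles. Of 9 measured members, 5 were at least 2-fold higher, all 9 lay above 0, and the median log2 ratio was 1.05. Mcm5, a subunit of the helicase ring, had relative signals of 1.43 in labelled-knockout liver and 0.544 in wild-type liver, and of 0.437 in labelled-knockout WAT and 0.575 in wild-type WAT. Labelled-knockout liver stood apart from the other 3 arrays, with a log2 ratio of 1.40 in liver (model error 0.20) and of -0.40 in WAT. Mcm2, another ring subunit, had relative signals of 0.574 in labelled-knockout liver and 0.217 in wild-type liver, and of 0.212 in labelled-knockout WAT and 0.251 in wild-type WAT. Its pattern over the arrays was like that of Mcm5, with a log2 ratio of 1.41 in liver (model error 0.21) and of -0.24 in WAT.

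Mcm3 was read by a pair of probes that overlap in position. Its relative signal was 1.99 in labelled-knockout liver and 0.936 in wild-type liver, and 0.900 in labelled-knockout WAT and 1.11 in wild-type WAT. The gene's log2 ratio was 1.09 in liver and -0.30 in WAT, and its probes had the same sign in each tissue. Mcm4 had relative signals of 2.14 in labelled-knockout liver and 0.994 in wild-type liver, a 2.15-fold difference, and its log2 ratio in WAT was -0.16. Cdt1, the loader of the ring, had 2.90 in labelled-knockout liver and 1.40 in wild-type liver, with a log2 ratio of 1.05, and -0.09 in WAT. These 5 genes stood between 2.07-fold (Cdt1) and 2.65-fold (Mcm2) higher in labelled-knockout liver.

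The other ring subunits did not reach 2-fold. Mcm6, just under it, had relative signals of 8.74 in labelled-knockout liver and 4.48 in wild-type liver, and of 2.46 in labelled-knockout WAT and 3.28 in wild-type WAT. Labelled-knockout liver was again the brightest array and labelled-knockout WAT the dimmest, at 0.97 in liver and -0.42 in WAT on the log2 scale. Mcm7 was the only ring subunit with a WAT ratio above 0, at 0.11, and its liver ratio was 0.70. Orc6 and Orc2, subunits of the origin recognition complex, had lower liver ratios of 0.25 and 0.39 and WAT ratios of -0.13 and -0.03.

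Cdc6 and Orc1 were too dim in wild-type liver for a ratio. Cdc6, the ATPase that brings the ring to the origin, had a probe with relative signals of 0.0798 in labelled-knockout liver and 0.00817 in wild-type liver, where it was not well above background. Set against the lowest signal well above background on the wild-type array (0.0173), its bound was 4.61-fold higher in labelled-knockout liver. The bound of its other probe was 1.82-fold. Both bounds point the same way, and the first probe's level in WAT was 0.0371 in the labelled knockout and 0.0494 in wild type. For Orc1, the ATPase subunit of the origin recognition complex, the bound was 1.12-fold, and neither WAT array showed it above background. Its signal in labelled-knockout liver, 0.0195, was below that of an Otop1 probe not called above background in wild-type liver (0.0226). The Orc1 bound therefore does not settle a direction.

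**Figure D2:**
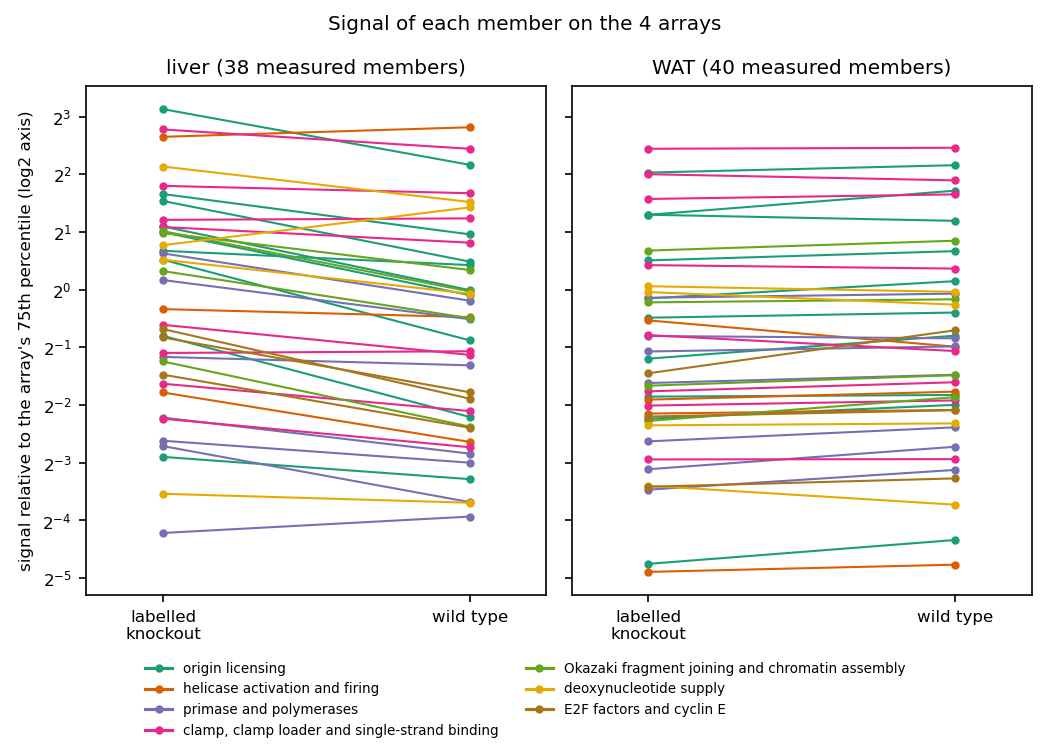
Signal relative to the array's 75th percentile (y axis, log2 scale) of each measured member on the labelled-knockout and wild-type arrays of liver (left, 38 members) and WAT (right, 40 members); each line joins 1 member's values and colours mark the roles. Lines fall towards wild type for 33 of 38 members in liver, while most lines in WAT are close to level, and heights of different genes are not comparable because probes differ.

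Helicase activation genes were uneven in liver. Gins2, a subunit of the GINS complex that joins the ring, had relative signals of 0.291 in labelled-knockout liver and 0.161 in wild-type liver, a log2 ratio of 0.86. Its partner Gins1 had 0.791 in labelled-knockout liver and 0.719 in wild-type liver, a log2 ratio of 0.14, within the model error of 0.20. In WAT, Gins1 had the highest ratio of all members, 0.46, and Gins2 had -0.14, so the order of the 2 subunits differed between the tissues. Mcm10, a firing factor, was close to level in both tissues, at -0.17 in liver and -0.06 in WAT. Of the liver arrays, Ticrr was above background on that of the labelled knockout alone, and its probes gave bounds of 1.24-fold and 4.67-fold higher there. The first came from a signal of 0.0216, which like that of Orc1 is too dim to settle a direction. In WAT the Ticrr probes disagreed in sign (0.19 and -0.43).

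The primase and polymerase genes were all within 2-fold in liver, with a median log2 ratio of 0.62 over 7 members. Pole2, the accessory subunit of the leading-strand polymerase epsilon, had relative signals of 0.153 in labelled-knockout liver and 0.0779 in wild-type liver, and of 0.0905 in labelled-knockout WAT and 0.115 in wild-type WAT. The log2 ratio was 0.97 in liver and -0.34 in WAT. Prim1, the catalytic primase subunit, had 1.55 in labelled-knockout liver and 0.876 in wild-type liver, a log2 ratio of 0.82. Pold1, the catalytic subunit of polymerase delta, had a log2 ratio of 0.68, and Pole, that of polymerase epsilon, 0.62 with probes at 0.90 and 0.35. The partners of Prim1 in the polymerase alpha complex were lower. Prim2 had 0.38, Pola1 had 0.15 and Pola2, the regulatory subunit, had -0.28 with a model error of 0.25. Pola2 was below 0 in WAT as well, at -0.39.

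The sliding clamp and its loader had small ratios. Pcna, the clamp, had relative signals of 6.85 in labelled-knockout liver and 5.43 in wild-type liver, and of 5.43 in labelled-knockout WAT and 5.50 in wild-type WAT, so that 3 arrays were nearly level and labelled-knockout liver was above them. Its log2 ratio in liver was 0.34. Among the subunits of the clamp loader, Rfc4 had 0.52, Rfc3 had 0.49 and Rfc2 had 0.27, while Rfc1 and Rfc5 were both at -0.03. Rpa2 and Rpa1, which bind single-stranded DNA, had 0.47 and 0.13. Of the 8 members of this role, 0 reached 2-fold in either tissue, and the median log2 ratios were 0.30 in liver and -0.01 in WAT.

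The genes of Okazaki fragment joining and chromatin assembly were higher in labelled-knockout liver in 4 of 4 cases, 2 of them by at least 2-fold. Fen1, the flap endonuclease that trims Okazaki fragments, had relative signals of 2.02 in labelled-knockout liver and 0.979 in wild-type liver, and of 0.858 in labelled-knockout WAT and 0.890 in wild-type WAT. Chaf1a, the large subunit of the histone chaperone CAF-1, had 0.422 in labelled-knockout liver and 0.193 in wild-type liver, and 0.207 in labelled-knockout WAT and 0.275 in wild-type WAT. For both genes labelled-knockout liver was the brightest array, with log2 ratios of 1.04 for Fen1 and 1.13 for Chaf1a in liver and of -0.05 and -0.41 in WAT in that order. Chaf1b, the middle subunit of CAF-1, had 0.82 in liver, from probes at 0.82 and 0.81, and Lig1, the ligase that seals the fragments, had 0.64.

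The genes of deoxynucleotide supply went in different directions in liver. Rrm1 and Rrm2, the subunits of ribonucleotide reductase, had log2 ratios of 0.59 and 0.61. Tyms, thymidylate synthase, had 0.16, within its model error of 0.22. Tk1, thymidine kinase of the salvage pathway, had the lowest ratio of all members. Its relative signal was 1.71 in labelled-knockout liver and 2.69 in wild-type liver, and 0.196 in labelled-knockout WAT and 0.201 in wild-type WAT. The log2 ratio of -0.65 in liver came from probes at -0.71 and -0.60, whereas WAT was level at -0.03. A further Tk1 probe was not above background on any array. This was the only role with a WAT median above 0, at 0.16, where Tyms had 0.33 and Rrm2 had 0.22.

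All 3 measured E2F and cyclin E genes had ratios above 0 in liver and below 0 in WAT, with 1 at least 2-fold higher in liver. E2f8, an atypical repressor of E2F targets that is known in liver for its part in polyploidy, had relative signals of 0.623 in labelled-knockout liver and 0.270 in wild-type liver, and of 0.0937 in labelled-knockout WAT and 0.104 in wild-type WAT. Its log2 ratio in liver was 1.21, and in WAT -0.15. E2f1, an activator of S phase genes, had 0.563 in labelled-knockout liver and 0.291 in wild-type liver, and 0.366 in labelled-knockout WAT and 0.614 in wild-type WAT. It had the lowest WAT ratio of the members, -0.75, and one just under 2-fold in liver, 0.95, so wild-type WAT and labelled-knockout liver were its bright arrays. Ccne1, cyclin E1, had 0.92 in liver, from probes at 0.98 and 0.86, and -0.11 in WAT. The probe of Ccne2 was not above background on any of the 4 arrays.

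Next to the 2-fold limit, Cdt1 (1.05) and Fen1 (1.04) were the lowest ratios above it. Pole2 (0.97), Mcm6 (0.97) and E2f1 (0.95) were the highest below it. All of these were closer to the limit than their model errors. So were Mcm3, Mcm4 and Chaf1a above it, and Ccne1, Gins2 and Prim1 below it. Both the calls and some signs depended on the background correction. With the normexp correction at an offset of 50, Mcm2 (0.96), E2f8 (0.92) and Chaf1a (0.75) lay under 2-fold, Mcm6 (1.03) lay over it, and Pole2 was at 0.18. Prim2 (-0.12), Orc2 (-0.11) and Tyms (-0.39) had ratios below 0 under it. Under the same setting the median of all genes in liver moved to -0.19, and the members' median was 0.57 above it, against 0.65 above it as given here.

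**Figure D3:**
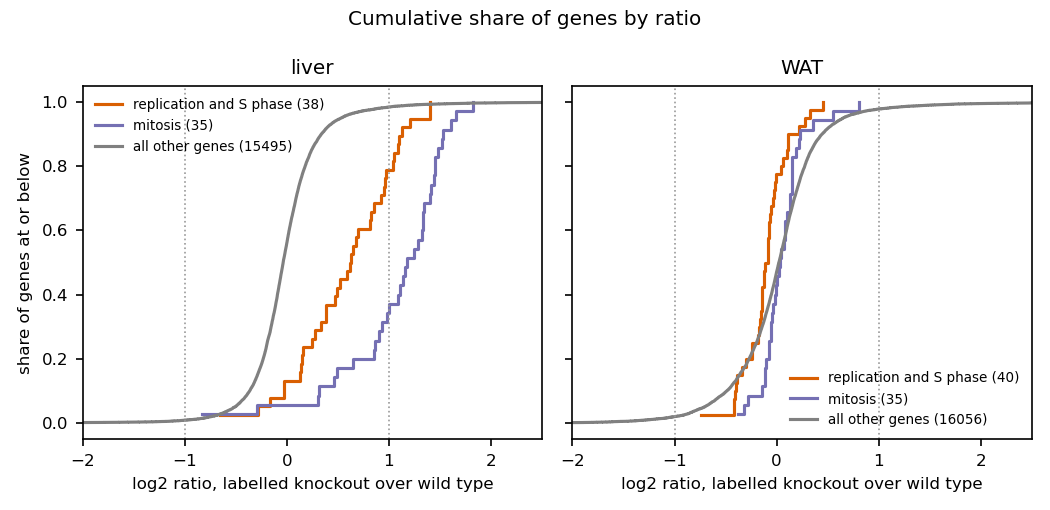
Cumulative share of genes (y axis) at or below a log2 ratio of the labelled knockout over wild type (x axis) in liver (left) and WAT (right), for the replication and S phase genes (orange), mitosis genes (purple) and all other measured genes (grey). In liver the replication genes lie to the right of the other genes (median 0.62) and the mitosis genes further right (median 1.18), while in WAT the medians are -0.10 and 0.04.

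Other genes of the pathway were counted in the same way. Their lists were chosen by function but with earlier results of these data known, so the counts are a description. Of 32 measured initiation and elongation genes outside the members, 4 were at least 2-fold higher in liver and 0 lower, with a median log2 ratio of 0.17. Among them were Dscc1 (1.76) and Chtf18 (1.27), of the clamp loader for sister chromatid cohesion, and Exo1, a nuclease (1.55). Of 13 genes of chromatin assembly and maintenance of DNA methylation, 3 were at least 2-fold higher in liver. They were Uhrf1, which brings the maintenance methyltransferase to new DNA (1.58), Asf1b, a histone chaperone (1.31), and Hells, a chromatin remodeller (1.02). In WAT 0 genes of either list reached 2-fold.

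Of 22 measured E2F, RB and G1/S cyclin genes outside the members, 2 were at least 2-fold higher in liver, Ccna2, the S phase cyclin A2 (1.34), and Myc (1.02). Ccnd1, cyclin D1, had relative signals of 11.8 in labelled-knockout liver and 6.44 in wild-type liver (log2 ratio 0.87), and of 1.08 in labelled-knockout WAT and 2.46 in wild-type WAT (log2 ratio -1.18). In this list Ccnd1 was the 1 gene at least 2-fold lower in WAT and Cdk6, a partner of D-type cyclins, the 1 gene at least 2-fold higher there (1.34). Of 17 further nucleotide supply genes, 0 reached 2-fold in liver, with Ctps, CTP synthase, nearest at a relative signal of 1.57 in labelled-knockout liver and 0.785 in wild-type liver. Of 19 cell cycle inhibitor and p53 target genes, 0 reached 2-fold in liver, and Cdkn1a, the p21 inhibitor, had 0.82 from probes between 0.28 and 1.37. Of 35 mitosis genes, 22 were at least 2-fold higher in liver (62.9%), with a median of 1.18 and the highest ratio for Cdc20, an activator of the anaphase-promoting complex (1.83). In WAT 0 of the 35 reached 2-fold.

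Marker genes of other cells were read beside these ratios. Beside the median log2 ratio over a list's measured genes, the list's summed signal adds the linear signals of all its genes on the array, each averaged over all of its probes, so a bright probe can carry the sum. In liver, the erythroid list, a lineage with dividing precursors, had a median log2 ratio of -0.47 over 6 measured genes and a summed signal of 2.65 in labelled-knockout liver and 3.47 in wild-type liver, with Rhag and Epb42 not above background on either array. The list of neutrophils and their precursors had a median of -0.77 and a summed signal of 2.35 in labelled-knockout liver and 3.70 in wild-type liver. T and B cell genes had a median of -0.18, with 9 of 10 below 0, and a summed signal of 7.48 in labelled-knockout liver and 5.48 in wild-type liver, most of it from a Cd4 probe at 11.4 in labelled-knockout liver and 6.88 in wild-type liver. Macrophage genes had a median of 0.05 (59.7 in labelled-knockout liver and 55.8 in wild-type liver), with 1 of 10 at least 2-fold higher, Trem2 (2.45). A further gene of that list had no ratio, being above background in labelled-knockout liver (0.149) but not in wild-type liver (0.00382). Hepatocyte genes had a median of -0.24 over 12 genes (summed signal 1384 in labelled-knockout liver and 1634 in wild-type liver). Of 4 measured genes of fetal and immature hepatocytes, 2 were at least 2-fold higher, Afp (2.19) and H19 (2.15), and the list's summed signal was 28.9 in labelled-knockout liver and 2.29 in wild-type liver. Most of that sum came from 1 of 2 H19 probes, at 54.4 in labelled-knockout liver and 3.47 in wild-type liver (log2 ratio 3.97), while the other H19 probe had a log2 ratio of 0.34. Stellate cell and fibroblast genes had a median of 0.23, with 8 of 9 above 0 (80.4 in labelled-knockout liver and 66.8 in wild-type liver). Epithelial genes had 0.26, with 7 of 8 above 0 (93.2 in labelled-knockout liver and 69.8 in wild-type liver) and Wfdc2 lowest (-1.04). Endothelial genes had -0.15, with 6 of 8 below 0 (27.4 in labelled-knockout liver and 32.0 in wild-type liver). Cholangiocyte genes had -0.20, with 4 of 5 below 0. The part of these cell types in the replication genes' ratios was not tested.

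In WAT the arrays differed in markers of tissue composition. All 8 skeletal muscle markers were at least 2-fold higher in the labelled knockout, with a median log2 ratio of 4.47 and a summed signal of 37.2 in labelled-knockout WAT and 2.62 in wild-type WAT. Of 8 brown and beige adipocyte markers 7 were at least 2-fold higher (summed signal 195 in labelled-knockout WAT and 53.7 in wild-type WAT), and of 7 measured epithelial markers 4 were (7.14 in labelled-knockout WAT and 1.15 in wild-type WAT). Macrophage genes had a median of -0.53 (7.39 in labelled-knockout WAT and 11.2 in wild-type WAT), and endothelial genes -0.45 (14.1 in labelled-knockout WAT and 18.5 in wild-type WAT). Stellate cell and fibroblast genes had -0.40 (238 in labelled-knockout WAT and 282 in wild-type WAT). Hepatocyte genes had a median of -0.89 over 12 genes, with 5 at least 2-fold lower, Ttr (-1.62) and Alb (-1.58) lowest, and a summed signal of 138 in labelled-knockout WAT and 94.2 in wild-type WAT, most of it from Cyp2e1, the 1 gene above 0 (0.97). The 9 adipocyte genes had a median of 0.17 (856 in labelled-knockout WAT and 762 in wild-type WAT). The part of these differences in the WAT ratios of the replication genes was not tested.

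The ratios of the members in the 2 tissues were set side by side. Among 38 members measured in both, 25 were above 0 in liver and below 0 in WAT, 8 above 0 in both, 4 below 0 in both, and 1, Rfc1, below 0 in liver and above 0 in WAT. Over all genes, 44.2% were above 0 in liver and 47.2% below 0 in WAT, and 31 of the 40 members measured in WAT were below 0. All 8 members at least 2-fold higher in labelled-knockout liver were below 0 in labelled-knockout WAT, between -0.05 for Fen1 and -0.41 for Chaf1a. Of these, Fen1, Cdt1 (-0.09), E2f8 (-0.15) and Mcm4 (-0.16) lay within the pooled SD between probes in WAT (0.23), so they were close to level there. The 4 below 0 in both were Tk1, Mcm10, Pola2 and Rfc5.

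**Figure D4:**
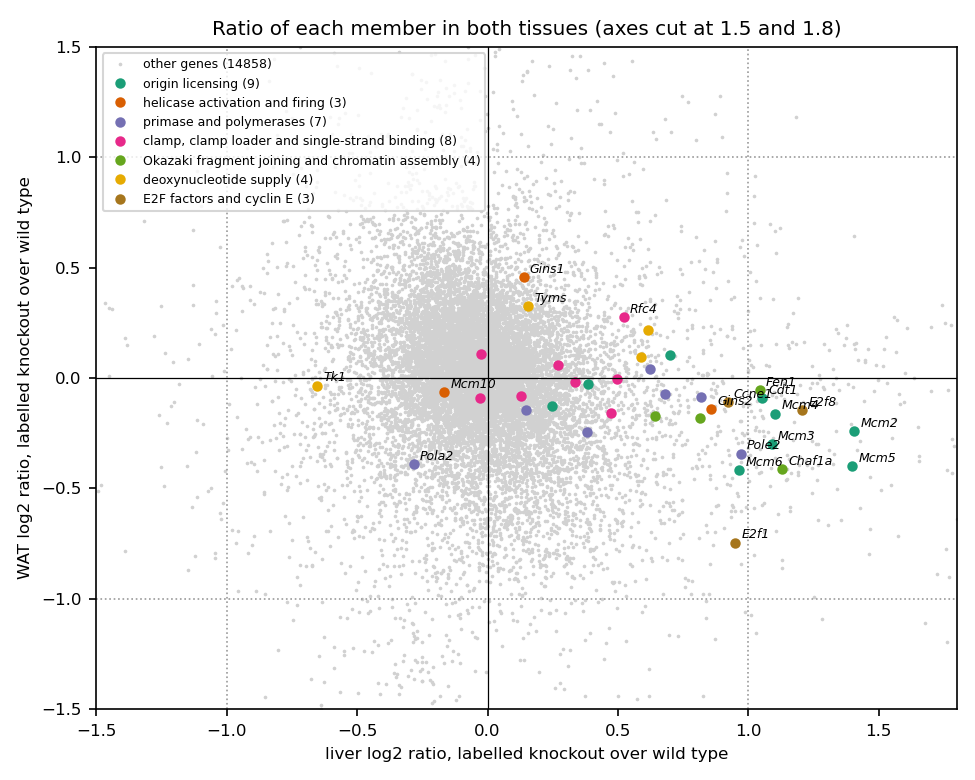
Log2 ratio of the labelled knockout over wild type in WAT (y axis) against that in liver (x axis) for the 38 members measured in both (coloured by role) and other genes (grey); dotted lines mark 2-fold. The helicase ring genes Mcm2 (1.41 in liver) and Mcm5 (1.40) lie at the right below the zero line, E2f1 lowest of the members (-0.75 in WAT), and Tk1 alone at the left (-0.65 in liver).

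The gap between the tissues was next compared within each genotype. On the labelled-knockout arrays 3 of 40 measured members were at least 2-fold higher in WAT than in liver and 14 were at least 2-fold lower, against 17.7% and 13.7% of the 15338 genes measured there. On the wild-type arrays 4 of 38 reached 2-fold upward and 4 downward, against 18.1% and 15.6% of 15305 genes. The members' median log2 ratio of WAT over liver was -0.64 in the labelled knockout and 0.05 in wild type, where all genes had medians of 0.14 in the labelled knockout and 0.04 in wild type. These ratios share the arrays of the genotype comparisons above and are not independent of them. Different probes of 1 gene varied more between tissues, by a pooled SD of 0.63 in the labelled knockout and 0.67 in wild type.

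Mcm10 and Tk1 had the largest tissue gaps of the members in both genotypes. Mcm10 had relative signals of 0.226 in labelled-knockout WAT and 6.27 in labelled-knockout liver, and of 0.236 in wild-type WAT and 7.03 in wild-type liver, log2 ratios of -4.80 in the labelled knockout and -4.90 in wild type. Tk1 had log2 ratios of WAT over liver of -3.12 in the labelled knockout and -3.74 in wild type. Both genes were thus far dimmer in WAT than in liver whichever genotype was read, and both were among the 5 members with liver ratios below 0. Rrm2 (-2.17 in the labelled knockout and -1.78 in wild type) and E2f8 (-2.73 in the labelled knockout and -1.38 in wild type) were also at least 2-fold lower in WAT in both genotypes.

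Orc6, Orc2 and Pola2 ran the other way and were the 3 members at least 2-fold higher in WAT on the labelled-knockout arrays. Orc6 had log2 ratios of 1.35 in the labelled knockout and 1.73 in wild type, and Orc2 of 1.04 in the labelled knockout and 1.46 in wild type. Pola2 was 2.15-fold higher in WAT in the labelled knockout and 2.31-fold higher in wild type. For E2f1 the sign differed between the genotypes, with -0.62 in the labelled knockout and 1.08 in wild type. Mcm2 (-1.44 in the labelled knockout and 0.21 in wild type) and Mcm5 (-1.71 in the labelled knockout and 0.08 in wild type) were near level between the tissues in wild type and over 2-fold lower in WAT in the labelled knockout.

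**Figure D5:**
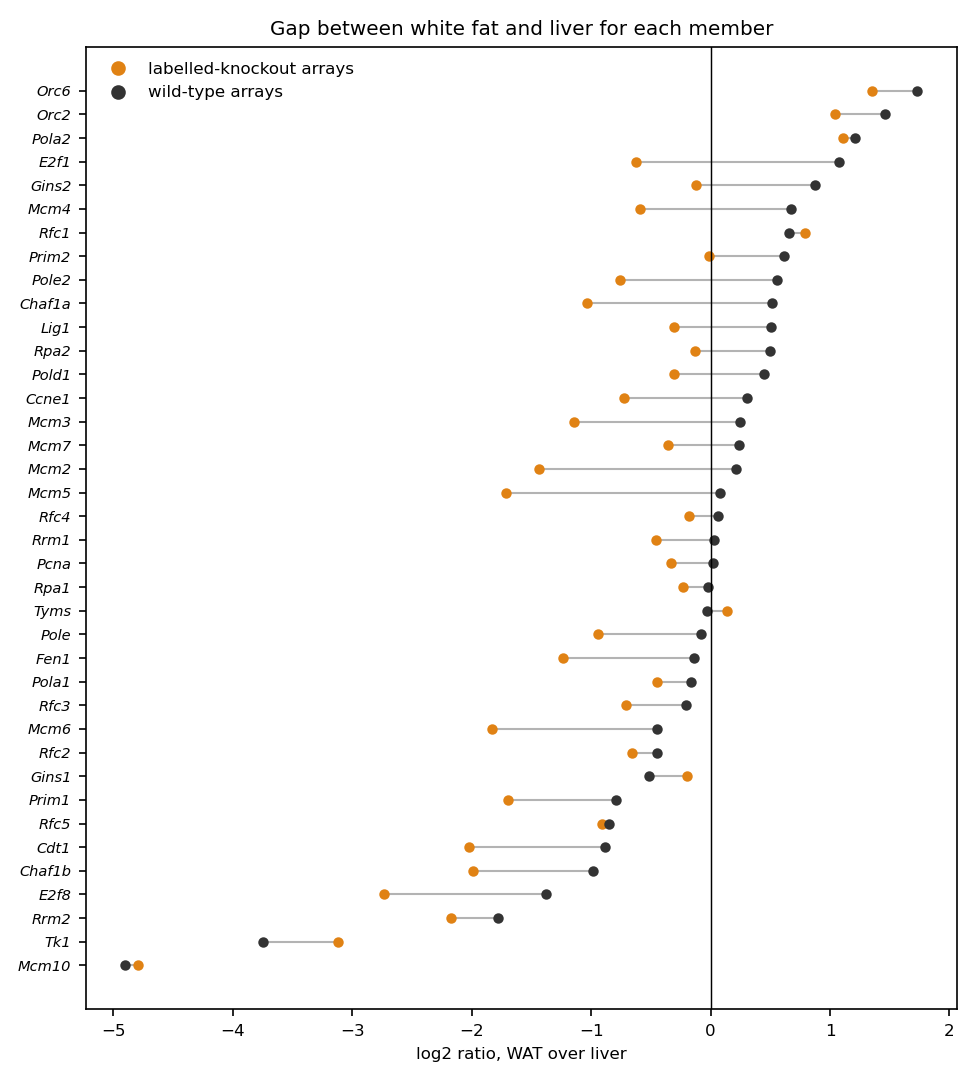
Log2 ratio of WAT over liver (x axis) for each of 38 members (y axis) on the labelled-knockout arrays (orange) and the wild-type arrays (black), ordered by the wild-type value. For most members the labelled-knockout point lies to the left of the wild-type point, and Tk1 and Mcm10 lie far to the left in both genotypes.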

How the data were processed

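The deposited scanner files give the intensity of each spot as Agilent Feature Extraction 11.0.1.1 wrote it, per the submitters' processing notes. Per the file headers this processed intensity is background-subtracted and detrended within the array, with no normalization between arrays, and probe positions are on mm9. The authors' deposited table is a linear ratio of each processed intensity to 1 constant per array (1764, 1613, 1470 and 1690 for labelled-knockout liver and WAT and wild-type liver and WAT), with column medians of 0.0751, 0.0875, 0.0737 and 0.0876. This constant equals the 75th percentile in that array's file header, so scale, centring and direction were settled from the scanner values, and the table served as an alternative.

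Each processed intensity was put on the log2 scale relative to the 75th percentile of the array's spots, controls left out. Outlier spots were left out (79 to 110 per array), spots of a probe were averaged, and a probe counted as measured in a pair if over a 0.5 share of its spots passed the software's call for well above background on each of the arrays. A gene's ratio is the mean over its measured probes. A bound sets the bright signal against the higher of the dim probe's own signal and the lowest signal well above background on that array. Probes not called above background can be brighter than that lowest signal, so a bound is approximate. Probes were named through a RefSeq table of GRCm38.p6 by accession (27234 probes), symbol (3576) or synonym (565), and 8054 were not named. The 4 arrays shared 1 slide and 1 scan time. The preset multiplicative error of 0.1 sets most of the model error. Repeat spots (10 per probe, 290 probes in liver and 294 in WAT) had a median SD of 0.04 and 0.05 in log2 ratio.

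Groups came from the labels. With 1 array per group, a call means at least 2-fold, and no test was made. The members and all gene lists were chosen with earlier results of these data known. Genes named are all the members, and of each other list those with the largest ratios. A few genes of these lists are not reported here. Windows were searched for the words named in the text on both strands. The steps were tested on simulated data. Alternatives were 11: other percentiles and normalizations, background corrections (limma 3.58.1 in R 4.3.3), probe filters and the deposited table. Other steps used Python 3.11.15.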

Additional observations from a re-analysis of the deposited data

Results flagged for a closer look

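Of the 8 members at least 2-fold higher in labelled-knockout liver, 4 were below 0 in WAT by more than the pooled SD between probes there. Mcm2 had log2 ratios of the labelled knockout over wild type of 1.41 in liver and -0.24 in WAT, a difference (WAT minus liver) of -1.65. For Mcm3 the difference was -1.39 (1.09 in liver and -0.30 in WAT). For Mcm5 it was -1.80 (1.40 in liver and -0.40 in WAT), and for Chaf1a -1.54 (1.13 in liver and -0.41 in WAT). These genes were picked by a high liver ratio and a WAT ratio below 0, so a large negative difference followed from the choice. Mcm2 passed the WAT limit narrowly (-0.241 against a pooled SD of 0.232). E2f1 and Mcm6, both under 2-fold in liver, had differences of -1.70 and -1.38. With 1 array per group none of these differences was tested, and the WAT arrays also differed in muscle and brown fat markers.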

How the results depend on the processing

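Under 11 alternatives, the number of members at least 2-fold higher in labelled-knockout liver was between 6 (normexp background correction with an offset of 50) and 11 (75th percentile over measured probes only), the number at least 2-fold lower in liver was 0, and both numbers in WAT were 0. Mcm3, Mcm4, Mcm5, Cdt1 and Fen1 were at least 2-fold higher in liver in all 11, Mcm2 in 10, E2f8 in 9, Chaf1a in 8 and Mcm6 in 4. The members' median log2 ratio in liver was 0.38 with normexp at an offset of 50 and 0.39 at an offset of 0, with medians of all genes at -0.19 and -0.20, and 14 of 38 member ratios moved by over the probe SD in each. The cause was not tested. Relative to the median of all genes, the members' median stayed between 0.57 and 0.70 in all 11. The share of all genes at least 2-fold higher in liver, 1.75%, became 0.662% and 0.726% with normexp at offsets of 50 and 0, 0.938% with no background subtracted and 3.18% with no filter on dim probes, and the share at least 2-fold lower, 0.886%, became 1.55%, 9.42%, 0.520% and 2.0% in the same order. In WAT the shares of 2.16% higher and 2.01% lower ranged from 1.33% to 3.19% and from 0.992% to 3.15%. For WAT over liver, between 1 and 3 members were at least 2-fold higher in the labelled knockout (12 to 16 lower) and between 1 and 6 in wild type (4 to 6 lower). Of all genes at least 2-fold different in liver, 66.4% were higher, against 29.9% and 7.15% with normexp at offsets of 50 and 0. For WAT over liver in wild type, the 75th percentile over measured probes moved the median of all genes to 0.17, and normexp moved it to -0.21 and -0.23. Dim members (among them Pole2, Gins2, Cdc6, Orc1, Orc2, Pola2, Prim2, Tyms and Ticrr) and the dimmer probe of Ccne1 are limited by signal over background. With 1 array per group, the results are also limited by the lack of any spread between animals. No paired analysis was possible because each group has 1 array.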
